A study of Mus musculus with 18 samples.

Results

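Aminoacyl-tRNA synthetases load each amino acid onto its transfer RNA, and 36 of their genes were followed here across 4 groups of mouse T-lineage cells. The genes were taken by symbol from the 43280 genes counted in each library: 20 encode enzymes of the cytosol and 16, whose symbols end in 2, encode enzymes of the mitochondrion. All 36 were present and all 36 were among the 13922 genes that passed the filter on low counts. RNA was sequenced from 18 libraries. Cells of the CD4+CD8+ group (n = 3) and of the group named Artificial CD8 (n = 5) were made from induced pluripotent stem cells labelled Pmel, on OP9-DL1 stromal cells, a bone marrow stroma that carries a Notch ligand. The iRTE group (n = 5) came from the same stem cells. The labels do not spell out iRTE; since the design names a 3D thymic culture and the other groups are accounted for, iRTE is taken to be that culture by elimination, although the growth protocol attached to every sample speaks of OP9-DL1. Naive CD8+ cells taken directly from the spleen of transgenic mice served as the reference (splenic CD8, n = 5; their sample descriptions carry the word pmel). All groups were sorted by CD45, CD4, CD8 and the T-cell receptor, and cells with NK1.1, the gamma-delta receptor or CD11c were gated out. The age of the mice is not given in the labels used here, and nothing in them tells whether the replicates of a group are separate cultures or animals; the p-values therefore reflect the spread of these libraries, which may be technical.

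Each synthetase but Eprs, which fuses more than 1 enzyme, recognises 1 amino acid and its transfer RNAs. Joining them costs ATP and supplies the ribosome with its substrates. Cytosol and mitochondrion have separate ribosomes, and most amino acids have a separate enzyme gene for each; Gars (glycine) and Kars (lysine) serve both. In mammals 8 of the cytosolic genes measured (Dars, Eprs, Iars, Kars, Lars, Mars, Qars, Rars) encode members of the multisynthetase complex, and many cytosolic synthetase genes are known targets of ATF4, the transcription factor of the amino acid response, which binds elements of the type TGATGNAA. Lymphocytes that grow and divide are known to make far more protein than resting naive cells.

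Total counts per library ran from 11132768 to 19305751. T-lineage markers were strong in all groups (summed level of 7 genes 4930 to 9620 CPM, the count scaled to a common library size). Cd4 was at 0 in all 5 iRTE libraries and at 224 ± 59.9 CPM (SD, n = 3) in the CD4+CD8+ group. B-cell and erythroid markers were highest in the splenic libraries. The 5 B-cell markers summed to 32.5 to 46.1 CPM there, against at most 7.1 in the other groups. The 3 erythroid markers summed to 67.7 to 92.7 CPM, against at most 2.23. The 5 myeloid markers summed to 2.21 to 18.1 CPM in iRTE, highest in replicate 5, to 4.6 to 14.3 in splenic CD8 and to at most 6.99 elsewhere. The 6 stromal markers reached 37.4 CPM in 1 CD4+CD8+ library and 17.2 to 26.3 in the Artificial CD8 group, and at most 3.74 elsewhere; Dcn was at 0 in all groups. The 4 thymic epithelial markers (Epcam, Foxn1, Krt5 and Krt8) summed to 29.8 to 39.3 CPM in Artificial CD8 and 15.6 to 19.4 in CD4+CD8+. They summed to at most 8.79 in iRTE and 4.16 in splenic CD8. Foxn1 was at 0 in all groups, and Krt5 was at 0 in Artificial CD8. In CD4+CD8+ and splenic CD8 Krt5 and Krt8 were at 0 as well, so Epcam alone made the sum there. Whether these markers stand for other cells, and the part of such cells in the results, was not tested. iRTE replicates 1 to 3 carry another style of description than replicates 4 and 5, so each comparison of iRTE was also run with either subset alone, and the genes whose call differed are named.

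In each comparison among Artificial CD8, iRTE and splenic CD8, most cytosolic genes were called in 1 direction and most mitochondrial ones were not. The promoter sequences are shown because the ATF4 element is a feature by which their promoters could be compared. Its part in these calls was not tested. Windows of 250 bases before to 50 bases after the start were taken from RefSeq (build GRCm38.p6) and matched 13 of the 20 cytosolic and 14 of the 16 mitochondrial genes. TGATGNAA, searched on both strands, was present in 5 of the 13 cytosolic windows and in 0 of the 14 mitochondrial windows, and in 3.97% of all 32851 windows of this length. The 5 windows follow, 5′ to 3′ on the gene's strand, with each match in capitals (TTGCATCA and TTTCATCA are the element read on the opposite strand).
Aars, chr8:111033592-111033891, plus strand: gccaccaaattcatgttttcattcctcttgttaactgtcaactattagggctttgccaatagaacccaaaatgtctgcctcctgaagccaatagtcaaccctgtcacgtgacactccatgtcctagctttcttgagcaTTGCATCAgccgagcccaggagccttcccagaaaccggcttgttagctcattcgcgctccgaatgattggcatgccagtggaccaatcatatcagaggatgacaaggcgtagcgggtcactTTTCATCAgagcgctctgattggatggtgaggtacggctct
Gars, chr6:55037751-55038050, plus strand: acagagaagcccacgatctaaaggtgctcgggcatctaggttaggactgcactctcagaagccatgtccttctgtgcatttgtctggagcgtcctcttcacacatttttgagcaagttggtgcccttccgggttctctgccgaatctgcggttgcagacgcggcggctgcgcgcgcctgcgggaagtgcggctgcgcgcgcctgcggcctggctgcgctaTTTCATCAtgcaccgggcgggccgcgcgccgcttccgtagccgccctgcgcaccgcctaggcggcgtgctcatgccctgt
Iars, chr13:49681880-49682179, plus strand: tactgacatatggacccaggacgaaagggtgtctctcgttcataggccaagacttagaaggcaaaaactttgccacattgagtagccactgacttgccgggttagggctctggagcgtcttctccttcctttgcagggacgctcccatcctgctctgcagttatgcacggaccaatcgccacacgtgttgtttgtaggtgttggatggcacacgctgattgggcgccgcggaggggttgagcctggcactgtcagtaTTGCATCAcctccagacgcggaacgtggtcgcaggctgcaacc
Tars, chr15:11399609-11399908, minus strand: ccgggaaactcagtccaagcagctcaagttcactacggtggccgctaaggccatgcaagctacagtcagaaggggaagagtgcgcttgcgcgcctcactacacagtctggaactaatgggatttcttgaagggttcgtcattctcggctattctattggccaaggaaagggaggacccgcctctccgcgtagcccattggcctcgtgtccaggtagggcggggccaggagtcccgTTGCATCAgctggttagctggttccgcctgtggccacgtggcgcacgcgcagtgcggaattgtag
Yars, chr4:129189653-129189952, plus strand: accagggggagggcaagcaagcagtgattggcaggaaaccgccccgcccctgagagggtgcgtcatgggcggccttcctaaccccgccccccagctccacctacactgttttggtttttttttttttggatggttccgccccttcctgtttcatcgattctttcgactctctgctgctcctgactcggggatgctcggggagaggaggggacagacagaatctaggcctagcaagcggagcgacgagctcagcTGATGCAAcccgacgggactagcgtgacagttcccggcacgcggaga

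The 2 matches of Aars began 112 bases before and 9 bases after the start. In Gars the match began 30 bases before the start and in Tars 15 bases before it, and in Iars and Yars it began 7 and 3 bases after it. The E-box CACGTG, the element bound by Myc and related factors, which is the same on both strands, was present in Aars, Farsb, Iars and Tars and in 1 mitochondrial window, that of Ears2, against 7.15% of all windows. A match is a run of letters and not a shown binding site.

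The 20 cytosolic genes together reached their highest level in Artificial CD8 and their lowest in splenic cells. Their summed level was 4982 ± 179 CPM (SD, n = 5) in Artificial CD8, 4412 ± 56.9 (n = 3) in CD4+CD8+, 3984 ± 296 (n = 5) in iRTE and 2498 ± 30.6 (n = 5) in splenic CD8. The lowest iRTE library (3559 CPM) stood far above the highest splenic one (2531), and the highest iRTE library (4292) stayed below the lowest CD4+CD8+ library (4349) and the lowest Artificial CD8 library (4700), so no 2 groups overlapped in this sum. Among the 20 genes the group mean was highest in Artificial CD8 for 13 and lowest in splenic CD8 for 18. The order of means was not counted over all genes tested, so these counts have no share beside them. Per kilobase of exon, the scale on which genes can be compared, the median cytosolic gene had a level of 74.3 CPM per kb in Artificial CD8, 70.1 in CD4+CD8+, 61.5 in iRTE and 37.7 in splenic CD8.

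The mitochondrial genes followed another order once Lars2 was left out. Without Lars2, which is described apart, the 15 genes summed to 656 ± 26.8 CPM in splenic CD8, 607 ± 37.1 in iRTE, 603 ± 6.93 in CD4+CD8+ and 571 ± 15.3 in Artificial CD8. In this sum the splenic libraries (620 to 695) lay above all Artificial CD8 libraries (547 to 586) and overlapped those of iRTE (558 to 651). With Lars2 included, the sum was 1373 to 1452 CPM in splenic CD8 and 1393 to 1824 in CD4+CD8+. It was 2583 to 2888 CPM in Artificial CD8 and 1858 to 4237 in iRTE, so splenic CD8 was then not the highest group. The group mean was highest in splenic CD8 for 9 of the 16 and lowest there for 4. Such counts were not made over all genes tested. Median levels per kilobase, again without Lars2, were 14.2 CPM per kb in splenic CD8 and 11.8 in Artificial CD8.

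**Figure D1:**
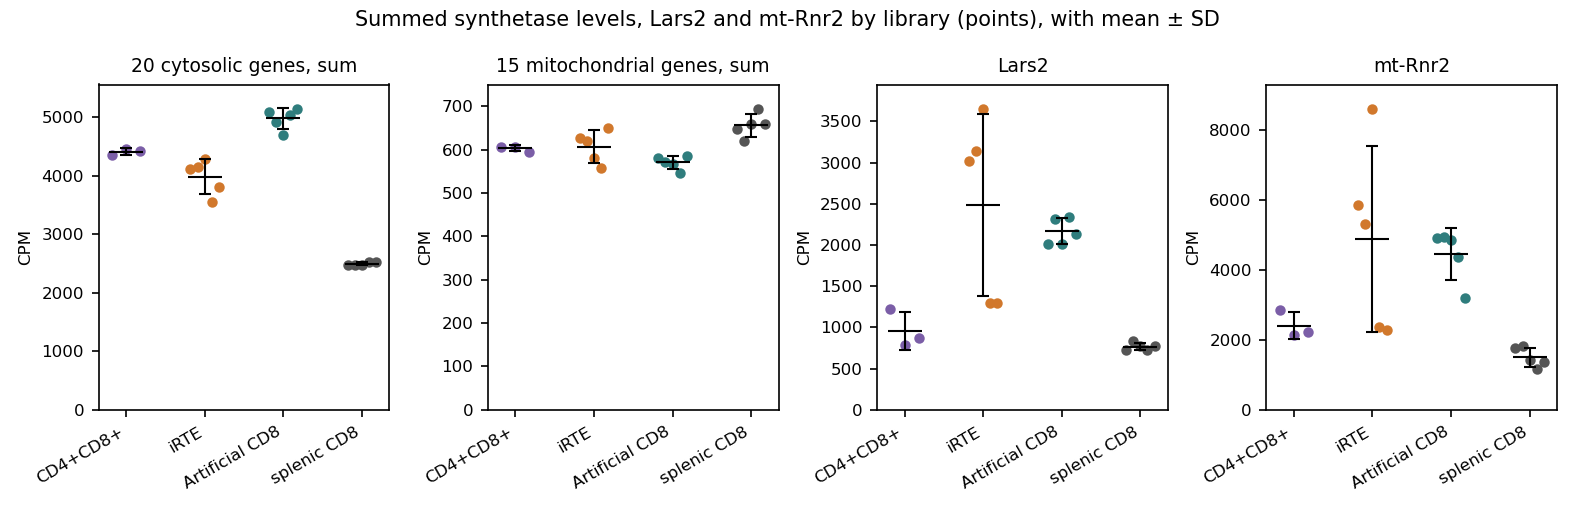
Summed library-scaled CPM of the 20 cytosolic genes and of 15 mitochondrial genes (all but Lars2), and CPM of Lars2 and of the mitochondrial 16S ribosomal RNA gene mt-Rnr2; points are libraries by group, bars the mean ± SD. The cytosolic sum is lowest in splenic CD8 (2467 to 2531 CPM) and the mitochondrial sum without Lars2 is not. Lars2 and mt-Rnr2 are both high in 3 iRTE libraries.

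Artificial CD8 cells were then compared with splenic CD8 cells, the question being how far CD8+ cells made on stroma differ from naive cells taken from a mouse. Of the 20 cytosolic genes, 19 were higher in Artificial CD8, 0 were lower and only Farsa was not called, with a median log2 fold change of 0.90; of all genes tested, 30.3% were higher and 30.2% lower and the median was -0.03. Calls were made by edgeR's quasi-likelihood test across all genes with Benjamini-Hochberg adjustment, at an adjusted p under 0.05. For the cytosolic genes each count of 0 in a direction, in this and the other comparisons, was also 0 at an unadjusted p under 0.05 and by DESeq2 and limma-voom. Other settings gave lower cytosolic genes: 1, Farsa (-0.17), in the fit of only Artificial CD8 and splenic CD8, and 2, Cars and Farsa, in iRTE against splenic CD8 without iRTE replicate 5 (-0.57 and -0.27) and with iRTE replicates 1 to 3 alone (-0.36 and -0.34). In bulk RNA, fewer cells of a type and less RNA per cell cannot be told apart.

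Aars, the alanine enzyme, differed most. Its level was 378, 391, 358, 406 and 444 CPM in the Artificial CD8 libraries and 103, 99.7, 114, 117 and 108 in the splenic ones. All Artificial CD8 values lay above all splenic values, 3.65-fold on average (log2 fold change 1.87 ± 0.07 SE, adjusted p = 2.78e-11, edgeR). Yars, the tyrosine enzyme, had levels of 220, 187, 208, 208 and 205 CPM against 55.6, 61.7, 58.9, 61.4 and 66 in splenic cells. This was a 3.39-fold difference (log2 1.76 ± 0.06, adjusted p = 1.41e-11, edgeR), again with no overlap.

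Gars, which charges glycine in both compartments, stood at 465, 431, 406, 467 and 500 CPM in Artificial CD8 and at 133, 142, 139, 166 and 156 in splenic CD8, 3.09-fold higher (log2 1.63 ± 0.08, adjusted p = 2.47e-11, edgeR). Kars, which charges lysine in both compartments, was 3.01-fold higher, with 270 to 300 CPM against 86.5 to 101. Gars was also the cytosolic gene of the highest level per kilobase in Artificial CD8 (191 ± 15.1 CPM per kb, SD), CD4+CD8+ and iRTE; in splenic CD8 that place fell to Farsa (98.4 ± 5.4). The remaining 15 called genes had log2 fold changes from 0.36 (Qars) to 1.45 (Mars).

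**Figure D2:**
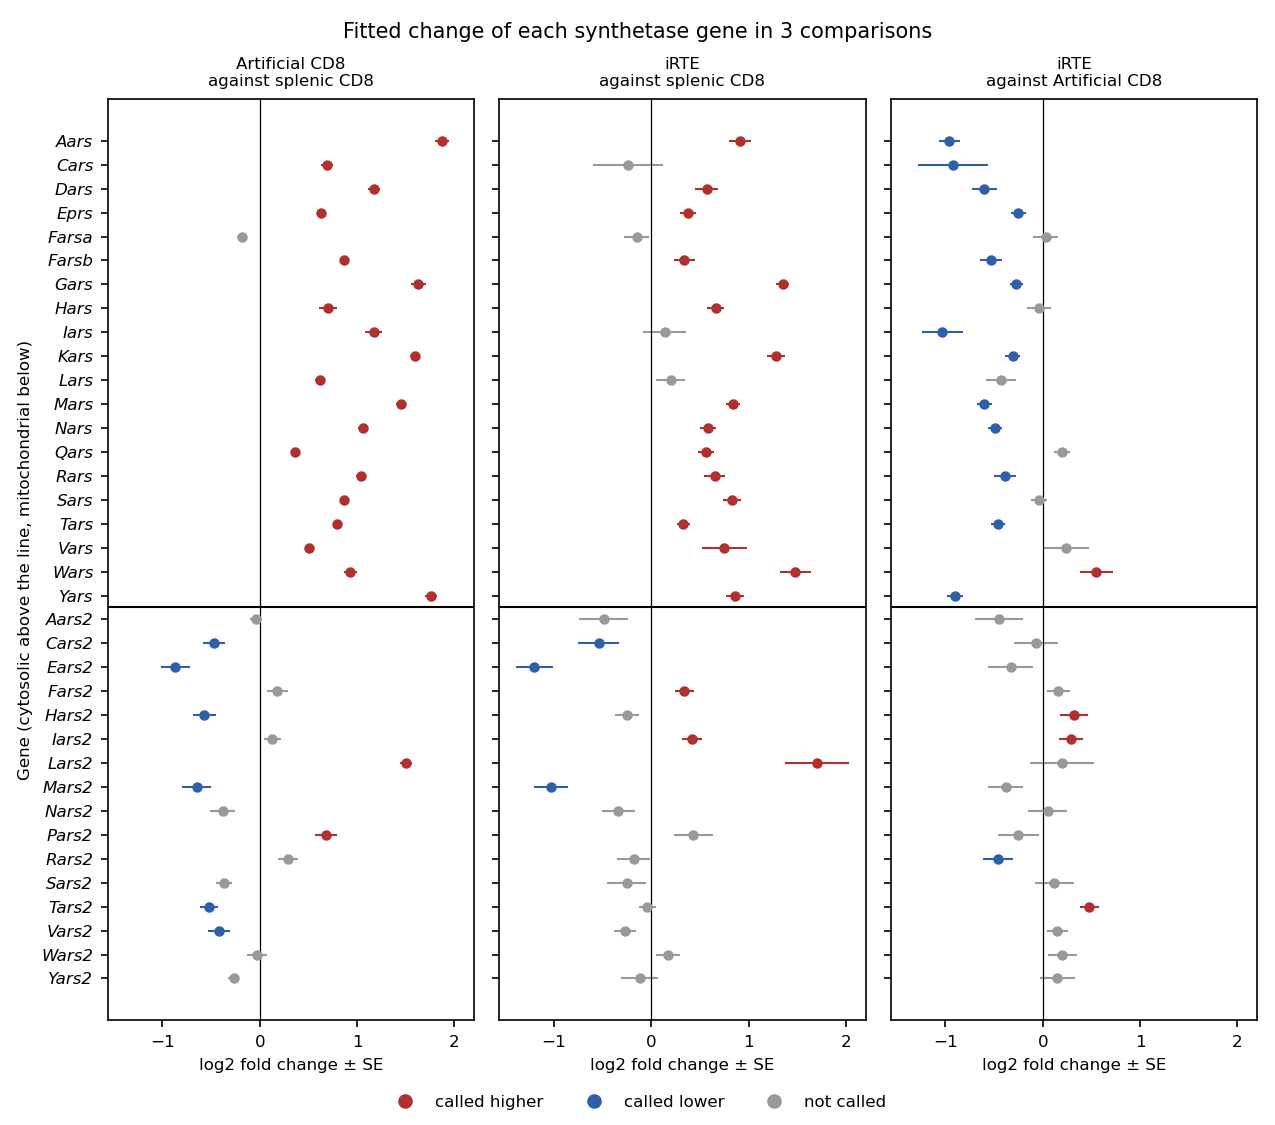
Log2 fold change ± SE of each of the 36 genes in 3 comparisons (edgeR); red marks genes called higher, blue lower and grey not called, with cytosolic genes above the line. In Artificial CD8 against splenic CD8, 19 of 20 cytosolic genes lie to the right and called; against Artificial CD8, 13 of 20 are lower in iRTE.

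The 8 genes of the multisynthetase complex were all higher in Artificial CD8 than in splenic CD8 (median log2 1.10, from 0.36 to 1.59), as were 11 of the 12 cytosolic genes outside it (median 0.87). By enzyme class, a division by the fold of the catalytic domain, 9 of 9 class I genes (median 0.93) and 9 of 10 class II genes (median 0.97) were higher; Eprs, which fuses an enzyme of each class, was higher as well (log2 0.63 ± 0.03, adjusted p = 1.05e-05, edgeR). Of the 13 cytosolic genes listed as targets of the amino acid response, all 13 were higher (median 0.93), and of the other 7, 6 were (median 0.87). Of all genes tested 30.3% were higher in this comparison. Medians of these subgroups are descriptions and their differences were not tested.

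Of the mitochondrial genes 2 of 16 were higher and 6 lower in Artificial CD8, the latter near the share of all genes called lower (30.2%), with a median log2 fold change of -0.32 (-0.37 without Lars2). Ears2, the mitochondrial glutamate enzyme, had a level of 20.7, 15.2, 13.6, 13 and 20.1 CPM in Artificial CD8 and 27.7, 29.8, 32.1, 29.3 and 32.4 in splenic cells. Its log2 fold change was -0.87 ± 0.15 (adjusted p = 0.000627, edgeR), and no library overlapped. Mars2, the mitochondrial methionine enzyme, was lower by the same test (log2 -0.65 ± 0.15, adjusted p = 0.00551), with 13.5 to 20.2 CPM against 22.2 to 32.1. Hars2, Tars2, Cars2 and Vars2, the enzymes of histidine, threonine, cysteine and valine, were lower too, with log2 fold changes of -0.57, -0.52, -0.47 and -0.42. The call of Cars2 (adjusted p = 0.0406, edgeR) was lost without any 1 splenic library (-0.48 to -0.41) and without Artificial CD8 replicate 1, 3, 4 or 5 (-0.49, -0.35, -0.48 and -0.48). The 2 genes on the other side were Lars2 and Pars2, the proline enzyme, at 19.2 to 26.8 CPM in Artificial CD8 and 12.2 to 15.5 in splenic CD8 (log2 0.68 ± 0.11, adjusted p = 0.00473, edgeR).

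iRTE cells were compared with the same splenic libraries, so the 2 comparisons share them. Here 16 of 20 cytosolic genes were higher in iRTE and 0 lower (2, Cars and Farsa, without iRTE replicate 5; median log2 0.61), beside 29.2% of all genes higher and 29.0% lower. Wars, the tryptophan enzyme, which is known to be induced by interferon-gamma, led with levels of 266, 307, 385, 217 and 219 CPM in iRTE and 99.9, 101, 104, 100 and 94.2 in splenic cells (log2 1.48 ± 0.16, 2.79-fold, adjusted p = 4.55e-08, edgeR). Gars followed at 365, 371, 389, 341 and 413 CPM (log2 1.35 ± 0.07, 2.56-fold) and Kars at 242, 236, 248, 232 and 184 CPM (log2 1.28 ± 0.09, 2.42-fold). Every iRTE library lay above every splenic library for these 3 genes.

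The 4 cytosolic genes that were not called were Cars, Farsa, Iars and Lars, the enzymes of cysteine, phenylalanine (1 subunit), isoleucine and leucine. Farsb and Vars were called over all 5 iRTE libraries (log2 0.34 and 0.75) but not with replicates 4 and 5 alone (0.08 and 0.25). Of the 16 mitochondrial genes 3 were higher (Lars2, Iars2, Fars2) and 3 lower (Ears2, Mars2, Cars2); without iRTE replicate 5, 6 synthetase genes were lower, 4 of them mitochondrial. Ears2 was at 8.72, 14, 12.2, 19.1 and 11.4 CPM in iRTE, 2.30-fold lower than in splenic cells (log2 -1.20 ± 0.19, adjusted p = 3.44e-05, edgeR). Mars2 was at 9.59 to 15.9 CPM, 2.04-fold lower (log2 -1.03 ± 0.17). Cars2 (log2 -0.54) lost its call with iRTE replicates 4 and 5 alone (-0.16) and without any 1 of iRTE replicates 1, 2 and 3 (-0.48, -0.48 and -0.46) or splenic replicate 1 (-0.49), and Fars2 (0.34) with iRTE replicates 4 and 5 alone (0.32) and without iRTE replicate 1 (0.28). Called with replicates 1 to 3 alone but not over all 5 were Cars (-0.36), Farsa (-0.34), Lars (0.38), Aars2 (-0.77) and Pars2 (0.61), and with replicates 4 and 5 alone Hars2 (-0.39) and Vars2 (-0.46).

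The 2 cultures were compared directly, 3D against stroma as far as the labels allow. In iRTE 13 of 20 cytosolic genes were lower than in Artificial CD8 and 1 was higher (median log2 -0.41), beside 18.7% of all genes lower and 20.0% higher (median 0.01). Iars, the isoleucine enzyme, had a level of 192, 197, 94.9, 175 and 128 CPM in iRTE and 329, 346, 317, 324 and 287 in Artificial CD8. That was 2.04-fold lower (log2 -1.03 ± 0.21, adjusted p = 0.000108, edgeR), with iRTE replicates 3 and 5 lowest and no overlap between the groups. Aars was at 220, 184, 200, 244 and 167 CPM in iRTE, 1.95-fold lower (log2 -0.96 ± 0.11, adjusted p = 4.78e-07), and Yars at 111, 105, 115, 92.5 and 127 CPM, 1.87-fold lower (log2 -0.90 ± 0.08, adjusted p = 2.86e-07, edgeR).

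Cars, the cysteine enzyme, was lower in iRTE with the largest SE among the cytosolic genes (29.6, 41.6, 53.6, 19.5 and 82.5 CPM against 79.7 to 96.9 in Artificial CD8). Its log2 fold change was -0.92 ± 0.36 (adjusted p = 0.00633, edgeR), the groups overlapped at iRTE replicate 5, and with iRTE replicates 4 and 5 alone the value of -0.77 did not pass. Dars, Mars, Farsb, Nars, Tars, Rars and Kars were lower with log2 fold changes from -0.60 to -0.31 and no overlap. Gars (-0.27) and Eprs (-0.25) were lower by small margins: the call of Gars was lost with iRTE replicates 4 and 5 alone (-0.27) and without Artificial CD8 replicate 5 (-0.24), and that of Eprs with iRTE replicates 4 and 5 alone (-0.08) and without any 1 of iRTE replicates 1, 2 and 3 (-0.21, -0.23 and -0.22) or any 1 Artificial CD8 library (-0.26 to -0.24). Lars had a level of 118, 120, 118, 96 and 70.8 CPM in iRTE, below all Artificial CD8 libraries (128 to 155), yet did not pass (log2 -0.43 ± 0.15, adjusted p = 0.055, edgeR); with iRTE replicates 4 and 5 alone it passed (-0.76).

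The 5 genes with a TGATGNAA match were all lower in iRTE (log2 -1.03 to -0.27, median -0.90), as were 5 of the 8 cytosolic genes whose window had no match (-0.60 to 0.20, median -0.28). For the 7 cytosolic genes with no window in the table the count was 3 lower and 1 higher. In Artificial CD8 against splenic CD8 all 5 genes with a match were higher (median 1.63), and 7 of the 8 without one (median 0.87). Of all genes 18.7% were lower and 20.0% higher in iRTE against Artificial CD8, and 30.3% were higher in Artificial CD8 against splenic CD8. The counts by match rest on few genes and the difference between them was not tested.

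Wars was the only cytosolic gene called higher in iRTE than in Artificial CD8. Artificial CD8 libraries had 217, 193, 163, 185 and 192 CPM, so the highest of them and the lowest iRTE library were both at 217 CPM, and the difference (log2 0.55 ± 0.17, 1.47-fold, adjusted p = 0.00278, edgeR) rested on iRTE replicates 1 to 3: with replicates 4 and 5 alone it was 0.19 and did not pass. All 12 interferon response genes of a comparison list were also higher in iRTE than in Artificial CD8 (median log2 2.00), beside 20.0% of all genes. Usp18, one of them, was at 27 to 59.9 CPM in iRTE, 6.54 to 11.1 in Artificial CD8 and 181 to 209 in splenic CD8. Irf7 was at 7.04 to 95.8, 13.1 to 17.6 and 364 to 397 CPM in the same order. Oasl2 was at 32.5 to 66.2, 6.04 to 14 and 49.6 to 55.6 CPM. Against splenic CD8 2 of the 12 were higher in iRTE and 7 lower, beside 29.2% and 29.0% of all genes. The part of interferon in the level of Wars was not tested. Vars, the valine enzyme, showed the same split among iRTE libraries, with 501, 560 and 658 CPM in replicates 1 to 3 and 258 and 415 in replicates 4 and 5, against 377 to 437 in Artificial CD8. It did not pass (log2 0.24 ± 0.24, adjusted p = 0.261, edgeR); with replicates 1 to 3 alone the value was 0.50 and passed, and with replicates 4 and 5 alone it was -0.28. Qars (log2 0.20) did not pass either, and passed with replicates 1 to 3 alone (0.30) and without replicate 4 (0.24) or replicate 5 (0.23).

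**Figure D3:**
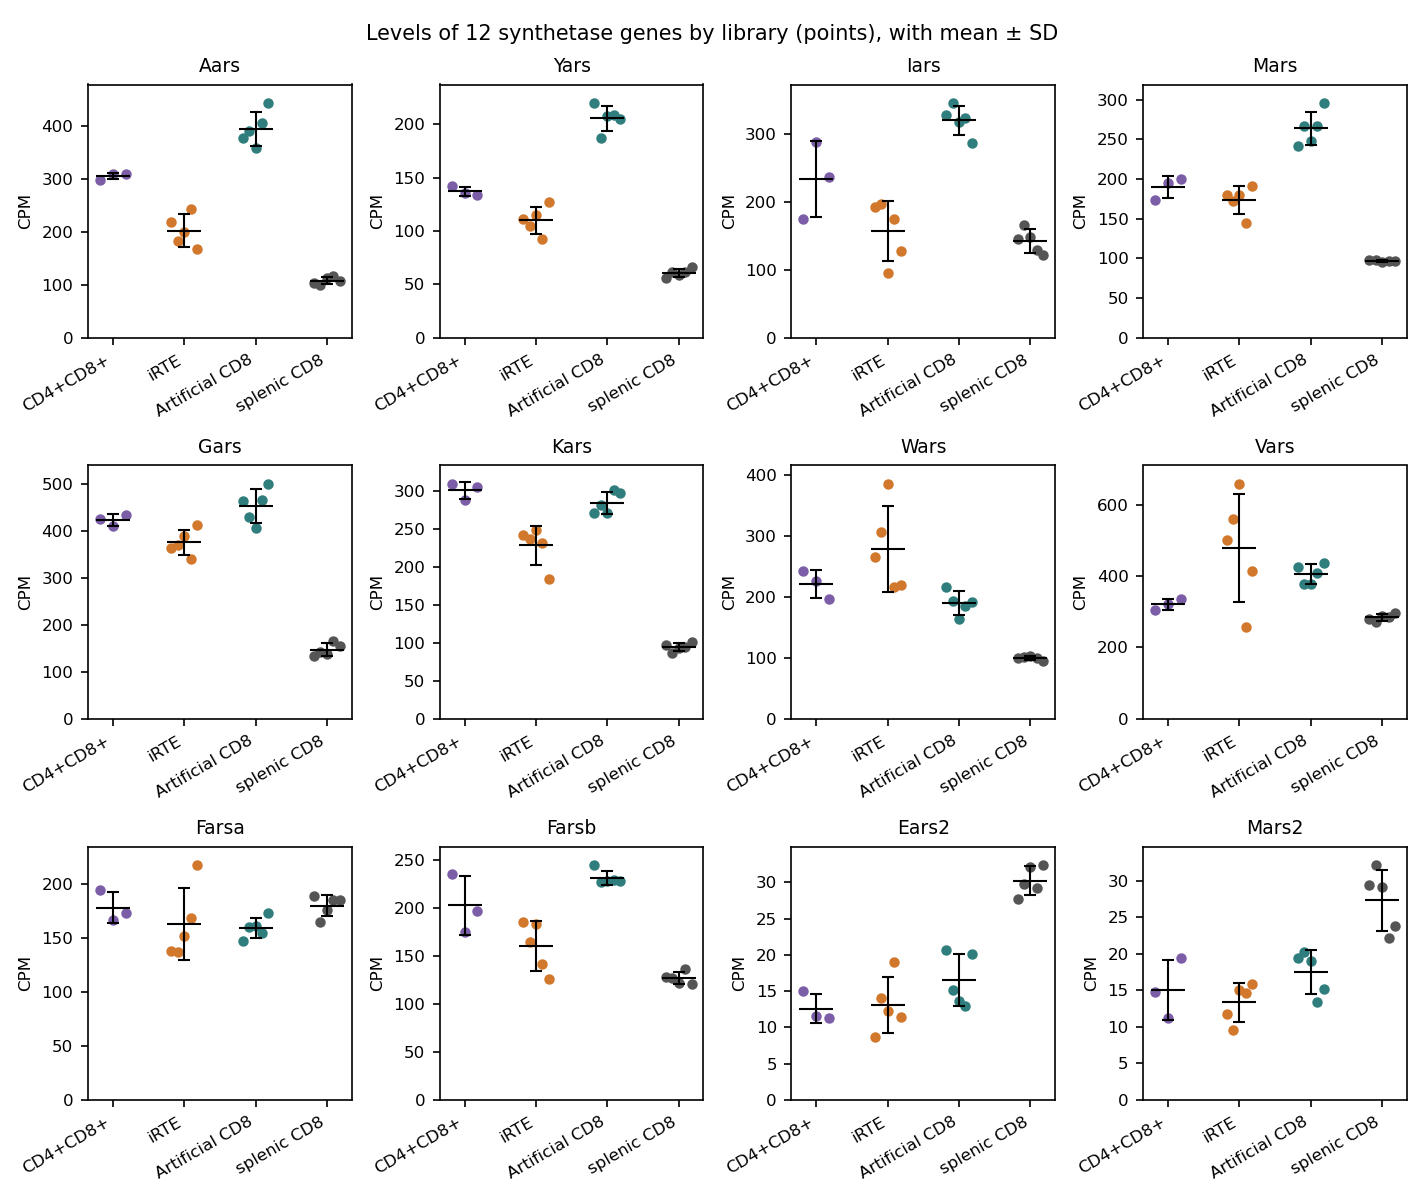
Library-scaled CPM of 12 genes, 1 panel each; points are libraries by group and bars the mean ± SD, on axes that start at 0. Aars, Yars, Iars and Mars are highest in Artificial CD8, Gars and Kars are lowest in splenic CD8, Wars and Vars spread widely within iRTE, Farsb separates Artificial CD8 from splenic CD8 and Farsa does not, and Ears2 and Mars2 are highest in splenic CD8.

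Between the 2 cultures 3 of 16 mitochondrial genes were higher in iRTE, 1 lower and 12 not called (median log2 0.13), where 20.0% of all genes were higher and 18.7% lower. Tars2, the threonine enzyme, was at 73.5, 79.1, 85.4, 69.3 and 88.9 CPM in iRTE and 48.2 to 65.2 in Artificial CD8 (log2 0.48 ± 0.10, adjusted p = 0.00282, edgeR), with no overlap. Rars2, the arginine enzyme, was at 46.9, 54.8, 30, 37.2 and 43.2 CPM against 55.4 to 65.2 (log2 -0.46 ± 0.15, adjusted p = 0.0138, edgeR), also with no overlap. Iars2 (log2 0.29, adjusted p = 0.0402) and Hars2 (0.32, adjusted p = 0.048) passed narrowly by the same edgeR test and their groups overlapped. With iRTE replicates 4 and 5 alone neither passed (0.16 for Iars2 and 0.17 for Hars2). The call of Hars2 was also lost without iRTE replicate 1 (0.24) or 3 (0.27) and without any 1 Artificial CD8 library (0.24 to 0.35), and that of Iars2 without iRTE replicate 1 (0.26) or 2 (0.22) or Artificial CD8 replicate 1 (0.25), 4 (0.25) or 5 (0.29). With iRTE replicates 1 to 3 alone Aars2 (-0.73), Cars2 (-0.39), Ears2 (-0.50) and Mars2 (-0.53) were called lower as well, and with replicates 4 and 5 alone Pars2 (-0.58) and Lars2.

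The CD4+CD8+ cells, the stage before CD8 cells in thymic development, were used to place the other groups. Few genes were called between Artificial CD8 and these cells: 3 of 20 cytosolic genes were higher (Yars, log2 0.58; Mars, 0.48; Aars, 0.37) and 0 lower, and Lars2 was the only mitochondrial gene called, beside 6.54% of all genes higher and 8.12% lower. For the mitochondrial genes 0 were lower by edgeR, DESeq2 or limma-voom and 1 was at an unadjusted p under 0.05 by edgeR; a fit limited to these 2 groups called 1 synthetase gene lower. The call of Aars (adjusted p = 0.0358) was lost without any 1 CD4+CD8+ library (0.35 to 0.38) and under several other settings. In splenic CD8 17 of 20 cytosolic genes were lower than in CD4+CD8+ cells and 0 higher (median log2 -0.83), beside 28.9% of all genes lower and 27.4% higher; Kars (-1.67 ± 0.05), Gars (-1.53 ± 0.06) and Aars (-1.50 ± 0.05) differed most. Of the mitochondrial genes 6 were higher in splenic CD8 (Ears2, Mars2, Nars2, Hars2, Tars2, Vars2) and Iars2 was lower (log2 -0.39); Ears2 (1.26 ± 0.14) and Mars2 (0.86 ± 0.25) led. Without CD4+CD8+ replicate 3 the number of synthetase genes higher in splenic CD8 fell from 6 to 2, and Iars2 lost its call without CD4+CD8+ replicate 2 (-0.34) or 3 (-0.35).

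iRTE cells lay between. Against CD4+CD8+ cells 8 of 20 cytosolic genes were lower and 1, Vars, was higher (median log2 -0.28), beside 12.3% of all genes lower and 11.8% higher; of 16 mitochondrial genes Lars2 was higher and Rars2 lower. Aars was again the most different cytosolic gene (log2 -0.59 ± 0.10, adjusted p = 0.00076, edgeR): CD4+CD8+ libraries had 299, 309 and 309 CPM, all above the highest iRTE library. Next came Iars (-0.57 ± 0.29) and Vars (0.57 ± 0.24), whose groups overlapped. Only the calls of Aars and Lars2 held in all alternatives. The number of genes lower fell from 9 of 36 to 5 without CD4+CD8+ replicate 2 and to 4 without replicate 3. A fit limited to iRTE and CD4+CD8+ left only 1 lower gene, Aars. Rars2 (-0.56) lost its call without CD4+CD8+ replicate 2 (-0.47). Vars lost its call without any 1 of the 3 CD4+CD8+ libraries (0.53 to 0.61) or of iRTE replicates 1 to 3 (0.43 to 0.55), and Iars without CD4+CD8+ replicate 2 (-0.39) or 3 (-0.56) or iRTE replicate 3 (-0.44) or 5 (-0.50). With iRTE replicates 4 and 5 alone Vars (0.07) and Yars (-0.32) did not pass. With replicates 1 to 3 alone Farsb (-0.19) and Iars (-0.54) did not, while Cars (-0.46) and Farsa (-0.32) were called lower and Qars (0.37) and Wars (0.53) higher.

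The phenylalanine enzyme of the cytosol is built from 2 subunits, and their genes parted. Farsa, the catalytic alpha subunit, was called in none of the 6 comparisons over all libraries (log2 fold changes -0.18 to 0.03; the settings that called it are given above), with 147 to 172 CPM in Artificial CD8, 137 to 217 in iRTE, 166 to 194 in CD4+CD8+ and 164 to 189 in splenic CD8. Farsb, the beta subunit, was called in 5 of 6: its libraries had 227 to 244 CPM in Artificial CD8, 126 to 186 in iRTE, 175 to 235 in CD4+CD8+ and 121 to 136 in splenic CD8 (Artificial CD8 against splenic CD8 log2 0.87 ± 0.04, adjusted p = 1.21e-06, edgeR). The ratio of Farsb to Farsa, each per kilobase of exon, was 1.21 ± 0.107 (SD, n = 5) in Artificial CD8, 0.943 ± 0.0668 (n = 3) in CD4+CD8+, 0.859 ± 0.263 (n = 5) in iRTE and 0.587 ± 0.0389 (n = 5) in splenic CD8. Splenic libraries (0.543 to 0.641) and Artificial CD8 libraries (1.1 to 1.38) did not overlap, and iRTE spanned from 0.481 to 1.12. This ratio was computed after the levels were seen and is a description. Farsb shares sequence with Sgpp2, as given below, so its count could hold reads of that gene.

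Lars2, the mitochondrial leucine enzyme, stood apart from every other gene of its compartment. Its level was 3025, 3142 and 3655 CPM in iRTE replicates 1 to 3 but 1300 and 1296 in replicates 4 and 5; it was 2013, 2317, 2015, 2341 and 2137 in Artificial CD8, 1217, 785 and 871 in CD4+CD8+ and 724, 832, 775, 730 and 768 in splenic CD8. It made up 51.2 to 86.3% of the summed mitochondrial synthetase CPM of a library and was the highest of all 36 genes per kilobase in each group (197 ± 11.2 CPM per kb in splenic CD8, 638 ± 285 in iRTE). Against splenic CD8 it was higher in iRTE (log2 1.70 ± 0.33, 3.24-fold, adjusted p = 7.26e-06) and in Artificial CD8 (1.5 ± 0.06, 2.83-fold, adjusted p = 2.13e-05), and it was higher in both cultures than in CD4+CD8+ cells (1.37 ± 0.38 and 1.18 ± 0.20, edgeR). With iRTE replicates 4 and 5 alone the values in iRTE were 0.77 against splenic CD8 and 0.44 against CD4+CD8+, and with replicates 1 to 3 alone 2.10 and 1.77, all of which passed. Between the cultures it did not pass (log2 0.20 ± 0.33, adjusted p = 0.527, edgeR), with 0.60, which passed, for iRTE replicates 1 to 3 alone and -0.74, which passed in the other direction, for replicates 4 and 5 alone.

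The level of mt-Rnr2, the 16S ribosomal RNA of the mitochondrion, moved with Lars2. It ran from 2281 to 8619 CPM in iRTE, 3189 to 4947 in Artificial CD8, 2143 to 2852 in CD4+CD8+ and 1172 to 1817 in splenic CD8. Over the 18 libraries, which share groups and library preparation, the log2 levels of Lars2 and mt-Rnr2 had a Pearson correlation of 0.952, and over the 5 iRTE libraries of 0.982; with mt-Rnr1, the 12S RNA, it was 0.858 and 0.761. These genes were looked at after the Lars2 values were seen, and the part of ribosomal RNA in the Lars2 count was not tested. The longest run of bases that the 9 annotated Lars2 transcripts share with mt-Rnr2, on either strand, was 12, and with mt-Rnr1 14. These transcripts are those of GENCODE M21, the annotation behind the counts is not given, and nuclear ribosomal RNA was not compared. The lengths therefore cannot tell which reads were counted as Lars2.

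**Figure D4:**
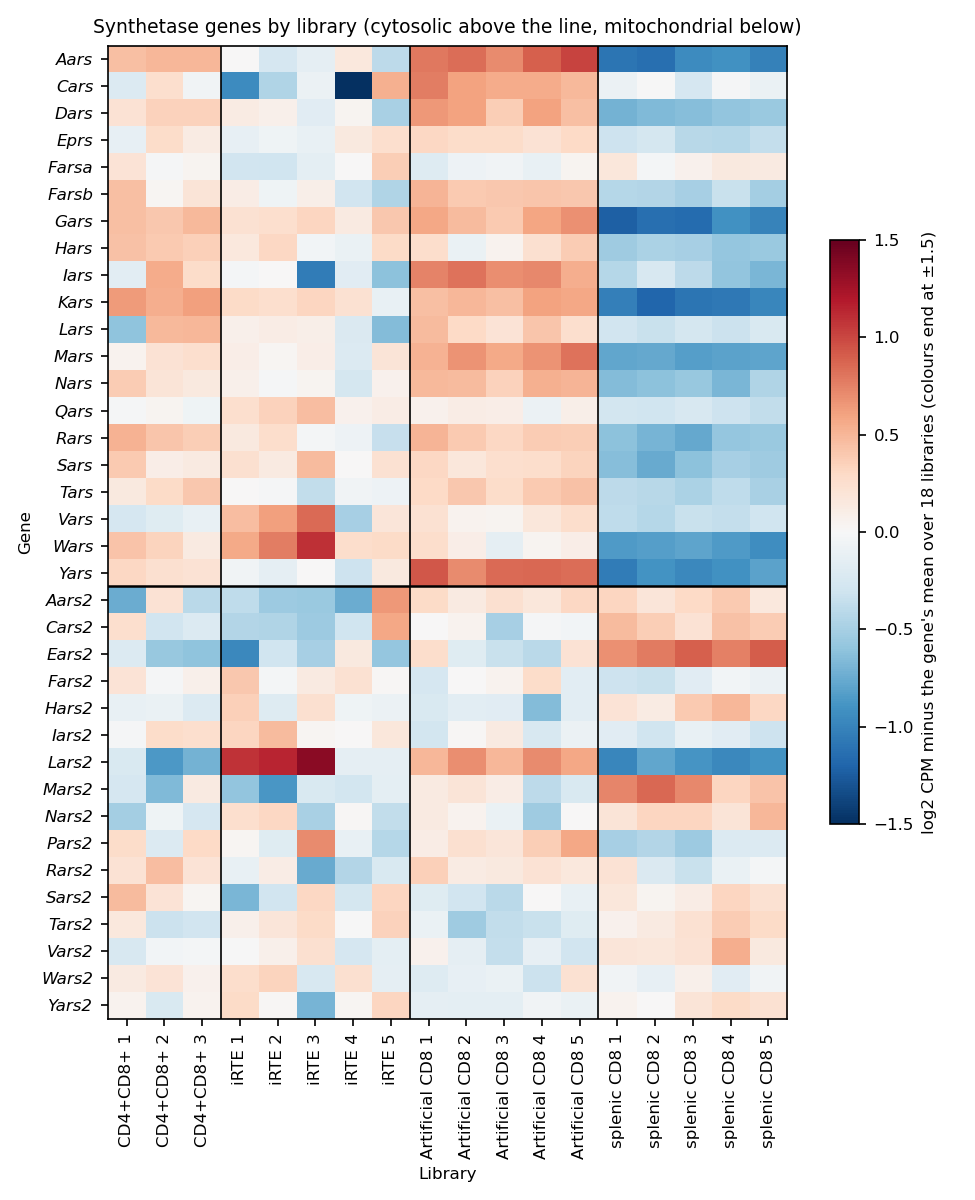
Log2 CPM of the 36 genes in each of the 18 libraries, as the difference from the gene's mean over the libraries; red is above and blue below that mean, and colours end at ±1.5. Cytosolic genes (above the line) are blue in most splenic libraries, with Farsa and Cars nearer to white, Ears2 is red there, and Lars2 is red in iRTE replicates 1 to 3 and near its mean in replicates 4 and 5.

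Aars2, Sars2, Wars2 and Yars2, the mitochondrial enzymes of alanine, serine, tryptophan and tyrosine, were called in none of the 6 comparisons over all libraries. Library levels of Wars2 ran from 12.4 to 19.7 CPM over all groups, those of Yars2 from 24 to 48.9, those of Sars2 from 20.6 to 46.2 and those of Aars2 from 20 to 53.1. Aars2 had a spread within iRTE of 20 to 53.1 CPM, wider than its whole range in splenic cells (37.5 to 44.3); without iRTE replicate 5, its highest library, it was lower in iRTE than in Artificial CD8 (-0.79) and splenic CD8 (-0.83). That they were not called does not show that they were equal. Iars2, at 92.8 to 107 CPM in splenic CD8 and 115 to 160 in iRTE, was higher in iRTE (log2 0.42 ± 0.10, adjusted p = 0.00285, edgeR) but did not pass with iRTE replicates 4 and 5 alone (0.31). Mars2 and Wars2 had the lowest level per kilobase in each group, Mars2 with 1.18 to 2.42 CPM per kb.

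Some of these genes share sequence with a neighbour or relative, so that their counts could hold reads of it. Of the 50-base stretches of the annotated transcripts, 13.8% of those of Aars were shared with transcripts of other genes, nearly all of them Exosc6, 22.7% of those of Iars2, mostly with Rab3gap2, and 8.85% of those of Fars2, mostly with Nrn1. Hars and Hars2 shared 146 stretches with each other. Of the stretches of Farsb 7.27% were shared, all with Sgpp2, against 0.472% of those of Farsa. The strand setting of the counting is not given in the sources used here, so reads of such overlapping genes cannot be told apart.

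The genes that work beside the synthetases were counted from lists. Of 15 other aminoacylation genes 6 were higher and 3 lower in Artificial CD8 than in splenic CD8, and 7 and 4 in iRTE. Of all genes 30.3% and 30.2% were higher and lower in the first of these comparisons and 29.2% and 29.0% in the second, and several counts of this and the following lists are near these shares. Aimp1, Aimp2 and Eef1e1, the scaffold proteins of the multisynthetase complex, were all higher in Artificial CD8 than in splenic CD8 (log2 0.99 ± 0.11, 0.62 ± 0.09 and 0.85 ± 0.07) and in iRTE (1.16 ± 0.17, 0.43 ± 0.13 and 0.37 ± 0.11), and Eef1e1 was lower in iRTE than in Artificial CD8 (-0.48 ± 0.10). Pstk, a kinase that acts on seryl-tRNA in selenocysteine synthesis, was higher in iRTE than in Artificial CD8 (log2 0.74 ± 0.17) and splenic CD8 (1.42 ± 0.19), and Qrsl1, which helps make mitochondrial glutaminyl-tRNA, was lower in iRTE than in Artificial CD8 (-0.56 ± 0.10).

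Of the 6 cytosolic elongation factors, 6 were higher in each culture than in splenic CD8. The share of all genes higher than in splenic CD8 was 30.3% in Artificial CD8 and 29.2% in iRTE. Among these factors Eif5a (log2 1.66 ± 0.17) and Eef2 (1.31 ± 0.16) had the smallest adjusted p in iRTE against splenic CD8. Against Artificial CD8 1 of 6, Eef2, was higher in iRTE (log2 0.38 ± 0.16, adjusted p = 0.0199, edgeR) and 0 were lower. In that comparison 20.0% of all genes were higher and 18.7% lower, and 13 of 20 cytosolic synthetases were lower. Of 9 mitochondrial translation factors 3 were higher and 2 lower in Artificial CD8 against splenic CD8, and 2 and 1 in iRTE. Gfm2, a factor that recycles mitochondrial ribosomes, was lower in iRTE than in either other CD8 group (log2 -0.43 ± 0.07 against Artificial CD8 and -0.50 ± 0.07 against splenic CD8). Tsfm, a mitochondrial elongation factor, was higher in iRTE than in splenic CD8 (0.74 ± 0.09), and Mtif3, an initiation factor, was higher than in Artificial CD8 (0.53 ± 0.10).

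Of amino acid response genes other than synthetases, 26 of 28 listed were tested. In iRTE 20 were lower than in Artificial CD8 (median log2 -0.77), beside 18.7% of all genes. Higher in iRTE were 0, also at an unadjusted p under 0.05 by edgeR, beside 20.0% of all genes. In Artificial CD8 22 of 26 were higher than in splenic CD8 (median 1.96), beside 30.3% of all genes. Asns, asparagine synthetase, an enzyme that makes free asparagine and charges no tRNA, was at 202 to 226 CPM in Artificial CD8, 38.2 to 64.4 in CD4+CD8+, 4.98 to 24 in iRTE and at most 0.241 in splenic CD8 (iRTE against Artificial CD8 log2 -4.04 ± 0.43, adjusted p = 6.7e-08, edgeR). Slc7a5, a transporter of large neutral amino acids, was at 391 ± 26.1 CPM in Artificial CD8, 114 ± 20.7 in iRTE and 45.1 ± 3.48 in splenic CD8. Eif4ebp1, a repressor of cap-dependent translation, was higher in iRTE than in splenic CD8 (log2 2.09 ± 0.15). Stc2 was at 17 to 35 CPM in iRTE and at most 0.432 in splenic CD8. Atf4 itself was at 130 ± 9.77 CPM in Artificial CD8, 120 ± 19.6 in CD4+CD8+, 108 ± 11.4 in splenic CD8 and 80 ± 41.1 in iRTE, with 1 iRTE library at 153 (iRTE against Artificial CD8 log2 -0.70 ± 0.28, adjusted p = 0.0145, edgeR). The eIF2 kinases and their partners, which act upstream of ATF4, were split, 2 of 9 higher and 2 lower in iRTE against Artificial CD8, near the shares of all genes (20.0% and 18.7%): Eif2ak1 was higher (0.62 ± 0.17) and Ppp1r15b lower (-0.88 ± 0.16). Against splenic CD8 Eif2s1 was higher in iRTE (0.64 ± 0.16) and Eif2ak2 lower (-0.63 ± 0.10).

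Growth-linked genes did not all rank the groups as the cytosolic synthetases did. Of 14 cell cycle genes 14 were higher in Artificial CD8 than in splenic CD8, beside 30.3% of all genes. Against Artificial CD8 12 were lower in iRTE, beside 18.7% of all genes (Mcm5, a helicase subunit, log2 -1.51 ± 0.27, and Rrm1, -1.68 ± 0.39). Against splenic CD8 13 were higher in iRTE, beside 29.2% of all genes (E2f1, 2.54 ± 0.24, and Mcm2, 1.53 ± 0.2). Mki67, the proliferation marker, was at 101 to 109 CPM in Artificial CD8, 173 to 256 in CD4+CD8+, 18.8 to 36.3 in splenic CD8 and 5.92 to 147 in iRTE, where it did not pass against either CD8 group. Myc was highest in iRTE (421 ± 226 CPM, 1 library at 825) against 230 ± 5.54 in Artificial CD8 and 74.6 ± 9.24 in splenic CD8. The part of cell division in the synthetase levels was not tested.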

How the data were processed

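RNA sequencing of 18 libraries in 4 groups was used. The deposited counts are whole numbers of reads for each gene symbol. Per the submitters' processing notes, reads were aligned to mm9 by STAR 2.4.2 and counted by Subread; annotation release and strandedness: not given in the sources used here. The authors' log2 table was left unused. Genes were filtered with the default of filterByExpr in edgeR 4.0.16 (R 4.3.3), scaled by TMM and fitted in 1 quasi-likelihood model with 4 groups. Each of 6 pairwise comparisons, which share groups, was adjusted by Benjamini-Hochberg over 13922 genes, with calls at an adjusted p under 0.05. Levels are TMM-scaled CPM; each SE was taken from the variances inside the groups (log2 CPM, prior count 2). The model was also run on simulated counts with known changes in fewer genes than were called here. That run checks the code and does not bear on the calls in these libraries. Library totals ran from 11132768 to 19305751 counts, and replicates of a group differed by more than counting error (chi-square per degree of freedom at least 4.67). CPM per kilobase used exon lengths of GENCODE M21. Promoter windows came from RefSeq GRCm38.p6; no coordinate of these was joined to the counts. No protein sequence was used, and 7 cytosolic and 2 mitochondrial genes had no window. Alternatives were RLE scaling, other filters, DESeq2 1.42.0, limma-voom (limma 3.58.1), fits of only the groups compared, a replicate block, iRTE subsets and each library left out.

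The members and lists were chosen with earlier results of these data known. Named by rule were the 3 cytosolic and 2 mitochondrial genes with the largest called change in each comparison, 13 fixed genes (Aars, Eprs, Gars, Kars, Lars, Wars, Yars, Farsa, Farsb, Iars2, Lars2, Mars2, Pars2), genes never called, and, of the other lists, 2 called genes with the smallest adjusted p in each iRTE comparison with CD8 cells, plus 7 fixed genes; 1 other gene fixed by the rule is not reported here, nor counted in its list. Others named were chosen after their values were seen.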

Additional observations from a re-analysis of the deposited data

Results flagged for a closer look

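In 108 groups of 5 libraries (36 genes in 3 groups) 8 had a highest or lowest library whose gap to the next exceeded Dixon's 95% limit, where chance gives about 5%. Farsb was at 244 CPM in Artificial CD8 replicate 1, with the next library at 229. Kars was at 184 CPM in iRTE replicate 5, below the next at 232. Tars was at 115 CPM in iRTE replicate 3, below 141. In iRTE replicate 5 Aars2 reached 53.1 CPM, above 25.8, and Cars2 reached 48 CPM, above 26. Cars2 was at 22.7 CPM in Artificial CD8 replicate 3, below 31. Hars2 was at 35.9 CPM in Artificial CD8 replicate 4, below 48.3. Vars2 was at 53.1 CPM in splenic CD8 replicate 4, above 42. iRTE replicate 5 holds 3 of the 8.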

How the results depend on the processing

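Of the 106 member calls over the 6 comparisons, 12 of 18 (iRTE against Artificial CD8), 17 of 22 (iRTE against splenic CD8), 26 of 27 (Artificial CD8 against splenic CD8), 2 of 11 (iRTE against CD4+CD8+), 3 of 4 (Artificial CD8 against CD4+CD8+) and 17 of 24 (splenic CD8 against CD4+CD8+) held in every alternative run, and none changed sign. RLE scaling kept 104 of 106, DESeq2 105, limma-voom 103, a mean of at least 10 CPM 103, no filter 97 and fits of only the groups compared 94. RLE moved the median of all genes by less than 0.1 log2. The CD4+CD8+ group holds 3 libraries, which limits its comparisons: without its replicate 3, 26 of 39 calls held, and without replicate 2, 28 of 39. A count of 3 corresponds to 0.155 to 0.269 CPM in these libraries, and the lowest level of any of the 36 genes in any library was 8.72 CPM (Ears2 in iRTE). 

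For iRTE against Artificial CD8, the 4 higher genes became 2 under RLE scaling, no filter, the 10 CPM filter and the fit of only these groups, 7 with iRTE 1 to 3 and 1 with iRTE 4 and 5, and 2 to 6 when 1 library was left out (2 without iRTE replicate 1 or Artificial CD8 replicate 1, 4 or 5). For iRTE against splenic CD8, the 3 lower genes became 7 with the 10 CPM filter, 5 with DESeq2 and with limma-voom, 6 with iRTE 1 to 3, and 2 to 6 when 1 library was left out (6 without iRTE replicate 5). Fitting only the groups compared gave 10 lower genes in place of 6 in Artificial CD8 against splenic CD8, 7 higher in place of 4 and 1 lower in place of 0 in Artificial CD8 against CD4+CD8+, and 1 higher in place of 2 and 1 lower in place of 9 in iRTE against CD4+CD8+. In that last comparison the 2 higher genes became 1 with limma-voom and with iRTE 4 and 5, 4 with iRTE 1 to 3 and 1 to 4 when 1 library was left out (1 without CD4+CD8+ replicate 2 or 3 or iRTE replicate 1, 2 or 3, and 4 without iRTE replicate 4 or 5), and the 9 lower genes 4 to 9 (5 without CD4+CD8+ replicate 2, 4 without replicate 3). The 6 genes higher in splenic CD8 than in CD4+CD8+ became 2 to 5 when 1 CD4+CD8+ or splenic library was left out (2 without CD4+CD8+ replicate 3).

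Among genes not called, Farsa changed sign in iRTE against Artificial CD8 with the 10 CPM filter (-0.01), with iRTE 1 to 3 (-0.16) and with 1 library left out (-0.10 to 0.09), with iRTE 4 and 5 against splenic CD8 (0.11) and CD4+CD8+ (0.12), and in splenic CD8 against CD4+CD8+ with no filter (0.00) and with 1 library left out (-0.04 to 0.08). With iRTE 4 and 5, Vars (-0.28), Lars2 (-0.74) and Cars2 (0.29) changed sign against Artificial CD8, Lars (-0.12) against splenic CD8 and Wars (-0.02) against CD4+CD8+; Cars2 also did without iRTE replicate 3 (with 1 library left out it ran from -0.35 to 0.01). The cause was not tested.

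Same-numbered replicates did not deviate together (correlations from -0.0663 to 0.0587, 0 of them over 0.1). These few correlations cannot show whether libraries of the same number share an animal, a culture or a batch. With the replicate block 97 of 106 calls held, the counts of higher and lower genes were 3 and 14 for iRTE against Artificial CD8 21 and 6 for Artificial CD8 against splenic CD8, 19 and 4 for iRTE against splenic CD8, 3 and 6 (2 and 9 without it) for iRTE against CD4+CD8+, 3 and 0 for Artificial CD8 against CD4+CD8+ and 4 and 16 (6 and 18 without it) for splenic CD8 against CD4+CD8+, and Farsa moved to -0.06 in splenic CD8 against CD4+CD8+.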
